A study of Rattus norvegicus with 12 samples.

Results

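*Mertk*, *Axl* and *Gas6* were followed in whole retinas of Royal College of Surgeons (RCS) rats at postnatal day 21 (p21) and p60. They are 3 of the 32883 Ensembl genes on which reads were counted, and were taken by identifier and chromosome. Poly(A)-selected RNA from whole retina was sequenced in 12 libraries, with 3 libraries for each combination of age and line. The immunocompetent line has the genotype RCS-p+ and comes from rats labelled WT and male, and the athymic line has the genotype RCS-p+/Foxn1mu and comes from rats labelled female. *Foxn1* is needed for a thymus and therefore for mature T cells, and RCS-p+ denotes RCS rats with pigmented eyes. Both lines are RCS rats, so the *Mertk* mutation is shared by every group. The label WT refers to immune status, and no retina with intact *Mertk* was analysed here. Line and labelled sex coincide, so an effect of the line cannot be told apart from one of the labelled sex.

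Mertk and Axl are receptor tyrosine kinases of the TAM family, which also includes Tyro3. Gas6 is a secreted, vitamin K-dependent ligand that binds phosphatidylserine on dying cells or shed photoreceptor membrane with one end and a TAM receptor with the other. Mertk also responds to protein S, whereas Axl is activated by Gas6. In the eye, the retinal pigment epithelium (RPE) relies on Mertk to engulf the tips of the rod outer segments every day, and without it debris builds up and the photoreceptors die. TAM receptors are also used by macrophages and microglia to take up apoptotic cells and to restrain inflammation.

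The promoters of the 3 genes are shown for reference, and any part of these sequences in the changes between the ages was not tested. The sequences are RefSeq windows of the GRCr8 assembly that cover the 250 bases before the annotated transcript start, written 5′ to 3′ on the strand of the gene. Capitals mark each match to GGGCGG, the GC box bound by Sp1-type factors, on either strand.
*Mertk*, chr3:136392324-136392573, plus strand: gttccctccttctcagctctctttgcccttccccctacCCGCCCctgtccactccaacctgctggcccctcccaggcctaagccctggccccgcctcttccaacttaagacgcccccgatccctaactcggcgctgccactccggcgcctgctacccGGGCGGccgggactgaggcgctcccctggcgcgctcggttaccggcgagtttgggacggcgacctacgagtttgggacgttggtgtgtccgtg
*Axl*, chr1:90424010-90424259, minus strand: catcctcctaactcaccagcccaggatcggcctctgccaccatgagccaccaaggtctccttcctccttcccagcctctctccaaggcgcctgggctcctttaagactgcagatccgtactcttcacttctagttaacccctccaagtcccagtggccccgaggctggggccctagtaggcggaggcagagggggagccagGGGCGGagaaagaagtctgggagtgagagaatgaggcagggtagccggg
*Gas6*, chr16:82747426-82747675, plus strand: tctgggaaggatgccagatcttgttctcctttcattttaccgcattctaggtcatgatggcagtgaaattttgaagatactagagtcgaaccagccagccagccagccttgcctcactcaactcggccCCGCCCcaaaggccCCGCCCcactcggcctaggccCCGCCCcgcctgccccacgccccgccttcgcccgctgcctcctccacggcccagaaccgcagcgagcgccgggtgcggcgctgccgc

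The *Mertk* window held 2 GC boxes, the *Axl* window 1 and the *Gas6* window 3, and 30.5% of 33356 distinct promoter windows of this length held at least 1. *Mertk* and *Gas6* had 22 and 20 CG dinucleotides and a GC content of 68.0% and 65.2%. *Axl* had 7 CG dinucleotides and a GC content of 61.6%, where the median of all windows was 5 CG dinucleotides and 51.6%. None of the 3 windows held TATAAA (in 12.9% of all windows), CCAAT (34.0%), the E-box CACGTG (5.61%), the AP-1 motif TGACTCA (4.05%) or the STAT motif TTCNNNGAA (7.68%), searched on both strands. A match is a run of letters and not a measured binding site.

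Reads were counted on Rnor_6.0, where *Mertk* (ENSRNOG00000017319) lies on the plus strand of chromosome 3 from 121235119 to 121342444. *Axl* (ENSRNOG00000020716) lies on the minus strand of chromosome 1 from 82549420 to 82580761, and *Gas6* (ENSRNOG00000018233) on the minus strand of chromosome 16 from 81213364 to 81243757, where GRCr8 has it on the plus strand. The exons of *Mertk* merge into 19 blocks with 4647 bases, those of *Axl* into 20 blocks with 4335 bases and those of *Gas6* into 16 blocks with 3333 bases. No exonic position of the 3 genes is shared with another annotated gene. The inherited RCS mutation is a deletion that leaves the second exon out of the *Mertk* transcript and shifts the reading frame. In the annotation used for counting, the second block of *Mertk* runs from 121265710 to 121266118 and has 409 bases, which leaves a remainder of 1 after division by 3 and makes up 8.80% of the counted length. The counts are totals per gene, so the absence of this block could not be examined, and a count for *Mertk* is a count of reads on whatever transcript remains.

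**Figure D1:**
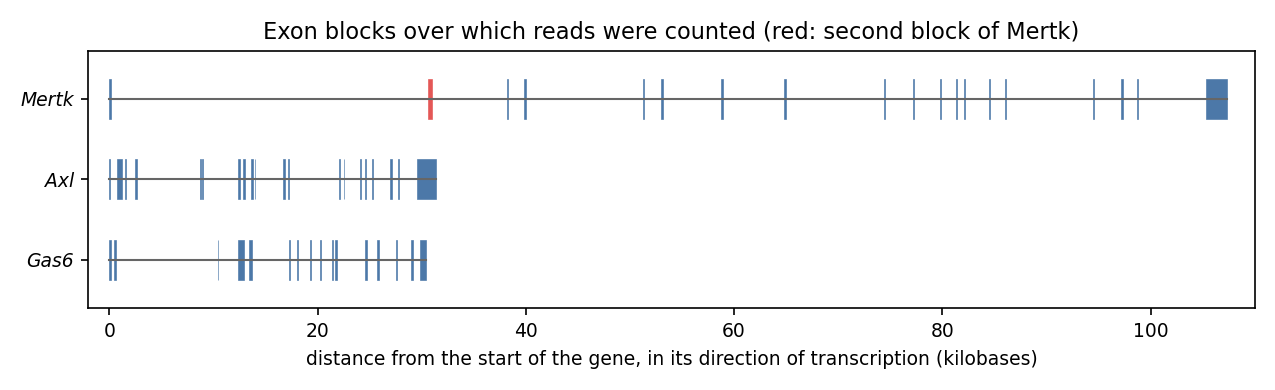
Exon blocks of *Mertk*, *Axl* and *Gas6* in Rnor_6.0, drawn to scale by distance in kilobases from the start of each gene in its direction of transcription, with exons as bars and introns as lines. *Mertk* has 19 blocks, and its second block of 409 bases, in red, is the exon lost in RCS rats.

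Libraries held between 13852516 and 16725355 counts, and the 12 pairs of libraries of one condition differed by 3.93 to 22.7 times the sampling noise (chi-square per degree of freedom). Of the 6 libraries labelled female, libraries 4, 5 and 22 had 269.2 to 328.3 CPM (counts scaled to the library total) on the Y chromosome, like the libraries labelled male (229.2 to 323.0), whereas libraries 6, 23 and 24 had 8.79 to 23.2. Libraries 4 and 5 are 2 of the 3 libraries labelled athymic at p21, and library 22 is 1 of the 3 at p60. Since the sex label of these libraries is contradicted and line and labelled sex coincide, their line label is in doubt too and could not be checked, and every comparison of the lines rests on labels. Library 3, labelled male, had the lowest value of the male libraries. The largest deviations from the mean of the condition along the first principal component (35.2% of the variance within conditions) were those of libraries 19 and 24. Results were also evaluated without libraries 3, 4, 5 and 22, and without libraries 4, 19 and 24, the latter set known from earlier results. This latter set does not hold the largest deviations in both directions, since library 5 (score -0.37) deviated more than library 4 (0.26). No identifier of the files could be matched to the symbols of the gene table at hand, so markers of RPE, photoreceptors, glia, microglia or vessels, and *Tyro3*, *Pros1* and the other genes of the pathway, were not analysed here. The labelled tissue could therefore not be checked against its markers.

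In every group *Gas6* was the most abundant of the 3 transcripts and *Axl* the least. Between genes, levels were compared as normalized CPM per kilobase of exon, where normalized CPM is the CPM after the library totals were multiplied by TMM factors. At p21, the mean level per kilobase was 86.8 ± 2.55 for *Gas6*, 7.49 ± 0.614 for *Mertk* and 2.40 ± 0.645 for *Axl* (SD, n = 6 each). At p60, it was 50.6 ± 3.78 for *Gas6*, 14.7 ± 0.998 for *Mertk* and 5.36 ± 0.873 for *Axl*. This order was found in 12 of 12 libraries. Among the 16069 genes tested, whose median level per kilobase was 10.6 at p21 and 10.5 at p60, *Gas6* lay above 94.4% of genes at p21 and 89.6% at p60. *Mertk* lay above 41.8% of genes at p21 and 59.7% at p60, and *Axl* above 22.9% and 33.7%. If the second block is left out of the counted length of *Mertk*, its level per kilobase is 1.10 times as high, 8.21 at p21 and 16.1 at p60, which does not alter the order.

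**Figure D2:**
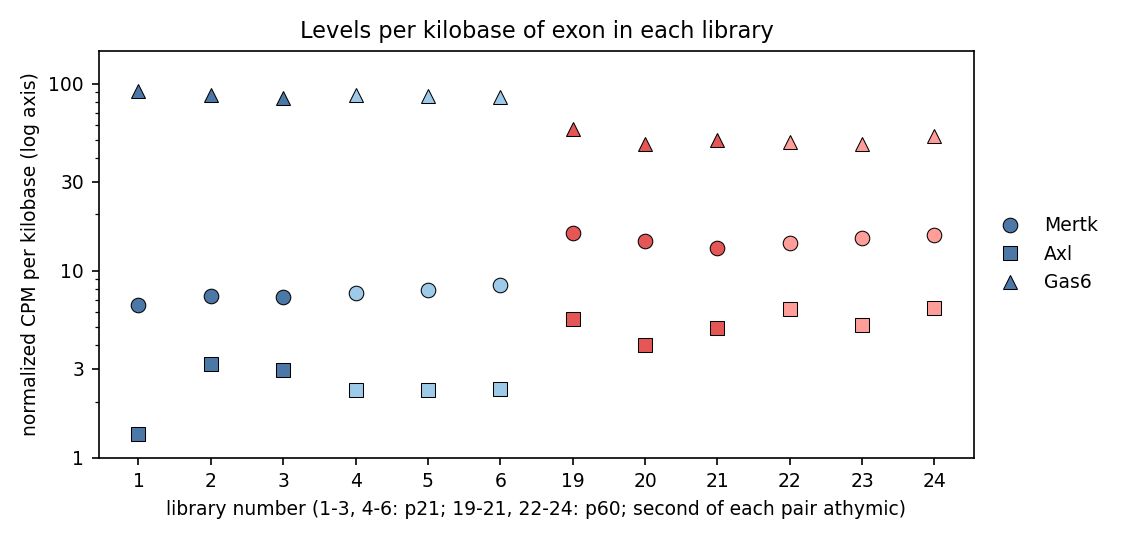
Level of each gene in each library, as normalized CPM per kilobase of exon on a log axis, with circles for *Mertk*, squares for *Axl* and triangles for *Gas6*. In all 12 libraries *Gas6* lies above *Mertk* and *Mertk* above *Axl*. The gap between the transcript of the ligand and those of the receptors is narrower in the p60 libraries, in red.

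From p21 to p60 the transcripts of both receptors rose (*Mertk* 1.96-fold, *Axl* 2.22-fold) and that of the ligand fell to 0.582 of its p21 level. The directions were the same in each line. All 3 genes passed the test over the 12 libraries, where 62.0% of all 16069 genes did (31.7% higher and 30.3% lower at p60), so passing it does not set them apart. The test was the quasi-likelihood method of edgeR with line as a covariate, and p-values were adjusted over all genes tested. Since whole retinas were sequenced, a change in the number of cells that carry a transcript cannot be told apart from a change in the transcript per cell.

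*Mertk*, the receptor that is mutated in these rats, was counted 384 to 607 times per library at p21, and the p60 counts were 989 to 1139. In the immunocompetent line at p21, normalized CPM was 30.5 in library 1, 34.0 in library 2 and 33.6 in library 3, and at p60 it was 74.4 in library 19, 66.6 in library 20 and 61.5 in library 21. In the athymic line at p21, it was 35.2 in library 4, 36.8 in library 5 and 38.8 in library 6, and at p60 it was 65.2 in library 22, 69.2 in library 23 and 71.8 in library 24. All p60 libraries exceeded all p21 libraries, and the nearest were 1.59-fold apart. The ages did not overlap for 40.4% of all genes, so this separation is common in these retinas. The log2 fold change over all libraries was 0.97 (standard error 0.0584, 95% interval 0.84 to 1.10, adjusted p = 5.66e-09 by edgeR), which corresponds to 1.96-fold and was higher than that of 94.2% of genes. It was 1.04 (standard error 0.0918, adjusted p = 1.86e-05) in the immunocompetent line and 0.89 (standard error 0.0673, adjusted p = 1.49e-05) in the athymic line, where 51.4% and 49.9% of all genes passed the test.

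*Axl*, which shares Gas6 as a ligand with Mertk, was also higher at p60 but varied more between libraries. In the immunocompetent line at p21, normalized CPM was 5.79 in library 1, 13.8 in library 2 and 12.8 in library 3, and at p60 it was 23.8 in library 19, 17.3 in library 20 and 21.5 in library 21. In the athymic line at p21, it was 9.94 in library 5, 10.1 in library 6 and between these in library 4, and at p60 it was 27.1 in library 22, 22.1 in library 23 and 27.4 in library 24. The ages did not overlap, as was found for 40.4% of all genes. However, the highest p21 library and the lowest p60 library, both immunocompetent, were only 1.25-fold apart. Library 1 lay well below the other p21 libraries with 73 counts, for which counting error alone gives an exact Poisson 95% interval of 57.2 to 91.8, where the others had 133 to 204 counts. The log2 fold change over all libraries was 1.15 (standard error 0.172, 95% interval 0.78 to 1.52, adjusted p = 4.80e-05), or 2.22-fold, and was higher than that of 96.2% of genes. In the immunocompetent line, it was 0.94 (standard error 0.274, 95% interval 0.33 to 1.56, adjusted p = 0.0172), and without library 1 it was 0.66 (standard error 0.158, adjusted p = 0.0107). In the athymic line, it was 1.35 (standard error 0.112, adjusted p = 2.59e-05), or 2.54-fold.

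*Gas6*, the ligand, was lower at p60. In the immunocompetent line at p21, normalized CPM was 305.0 in library 1, 288.4 in library 2 and 280.5 in library 3, and at p60 it was 190.9 in library 19, 158.2 in library 20 and 166.1 in library 21. In the athymic line at p21, it was 291.0 in library 4, 286.9 in library 5 and 284.3 in library 6, and at p60 it was 162.0 in library 22, 158.7 in library 23 and 175.0 in library 24. The ages did not overlap, as was found for 40.4% of all genes, and the nearest libraries were 1.47-fold apart. The p21 libraries lay close together, with a coefficient of variation of 2.93%, and the p60 libraries were more spread, with 7.48%. The log2 fold change over all libraries was -0.78 (standard error 0.0477, 95% interval -0.88 to -0.68, adjusted p = 6.70e-09), and 8.07% of genes had a lower one. It was -0.76 (standard error 0.0779, adjusted p = 4.61e-05) in the immunocompetent line and -0.80 (standard error 0.0584, adjusted p = 1.19e-05) in the athymic line.

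**Figure D3:**
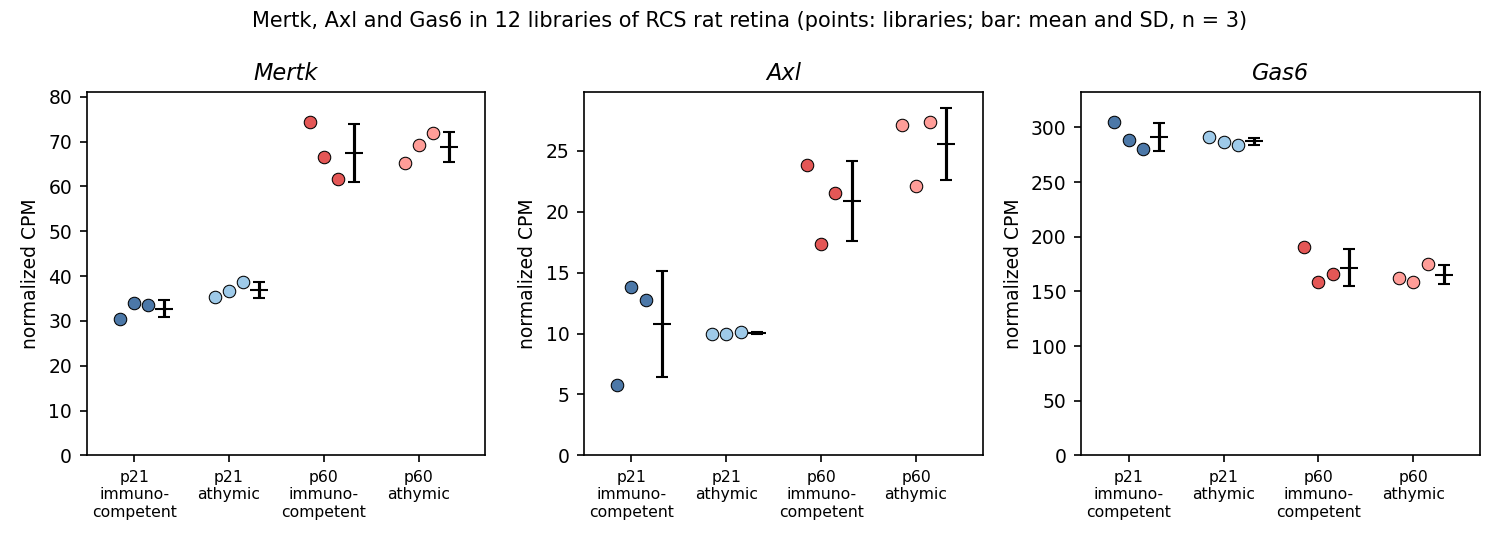
Normalized CPM of *Mertk*, *Axl* and *Gas6* (vertical axes from 0) in each library by age and line, with points for libraries and bars for the mean and SD of 3 libraries. The p60 libraries lie above all p21 libraries for *Mertk* and *Axl* and below them for *Gas6*, and library 1 is the low *Axl* point at p21. Among all genes tested, 40.4% had no overlap of the ages.

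Within each line alone, the ages did not overlap for any of the 3 genes. This held for 58.9% of all genes in the immunocompetent line and 58.8% in the athymic line, and an exact permutation test of 3 libraries against 3 cannot give a p-value under 0.100. Over the 12 libraries, the two-sided exact permutation test gave p = 0.00216 for each gene, the smallest value possible with 6 libraries per age. Compared with counting error, the variance between libraries of a condition was 3.75 times as large for *Mertk*, 9.12 times for *Axl* and 10.2 times for *Gas6* (chi-square per degree of freedom). For *Axl*, this value was 22.8 among the immunocompetent p21 libraries and 0.00835 among the athymic p21 libraries. The immunocompetent p21 libraries were thus the most spread and the athymic p21 libraries the closest.

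A fold change between the ages depends on how the libraries are scaled. When only total counts were used for scaling, the median over all genes tested moved from 0.015 to 0.20 on the log2 scale, and 7357 genes were higher and 2904 lower at p60, against 5096 and 4873 with TMM factors. The log2 fold change was then 1.16 for *Mertk*, 1.33 for *Axl* and -0.59 for *Gas6*, and relative to the median of all genes it was 0.95, 1.13 and -0.80. The directions were therefore the same under both scalings.

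The *Gas6* transcript was also set against each receptor transcript as the ratio of the levels per kilobase within each library, which does not depend on scaling between libraries. These are ratios of transcript levels, and the proteins were not measured. The log2 ratio of *Gas6* to *Mertk* was between 3.35 and 3.80 in the p21 libraries and between 1.68 and 1.91 in the p60 libraries. Its mean fell from 3.54 ± 0.151 to 1.79 ± 0.0834 (SD, n = 6 each, two-sided exact permutation test, p = 0.00216). On the linear scale, this mean ratio of levels per kilobase went from 11.6 to 3.45. The log2 ratio of *Gas6* to *Axl* was between 4.76 and 6.10 at p21 and between 2.96 and 3.57 at p60, with means of 5.23 ± 0.475 and 3.25 ± 0.224 (exact permutation p = 0.00216). It went from 37.5 to 9.53 on the linear scale, and its highest value was that of library 1. With Benjamini-Hochberg adjustment of the exact permutation values over the 3 ratios, both were 0.00325. In every p60 library *Mertk* and *Axl* were higher, and *Gas6* lower, than in any p21 library. Both ratios therefore had to separate the ages, and these p-values, the smallest possible, add nothing to the results of the single genes.

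The ratio of both receptor transcripts did not separate the ages. The log2 ratio of *Axl* to *Mertk* had a mean of -1.69 ± 0.399 in the p21 and -1.47 ± 0.236 in the p60 libraries (SD, n = 6 each), a difference of 0.22 (two-sided exact permutation test, p = 0.271, also 0.271 after adjustment). At p21, the values ran from -2.29 in library 1 to -1.20 in library 2, both immunocompetent, and this range covered nearly all p60 libraries (-1.84 to -1.16). The size of the difference rested on single libraries, since it was 0.10 without library 1 (exact permutation p = 0.532) and 0.32 without library 2 (exact permutation p = 0.106). It was 0.45 in the athymic line and -0.00442 in the immunocompetent line. In the athymic line the ages did not overlap, but the exact permutation p of 0.1 was the smallest possible there. For single genes, the ages did not overlap for 58.8% of all genes in that line. The share among ratios of gene pairs was not computed. Whether the difference of this ratio depends on the line was not tested.

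**Figure D4:**
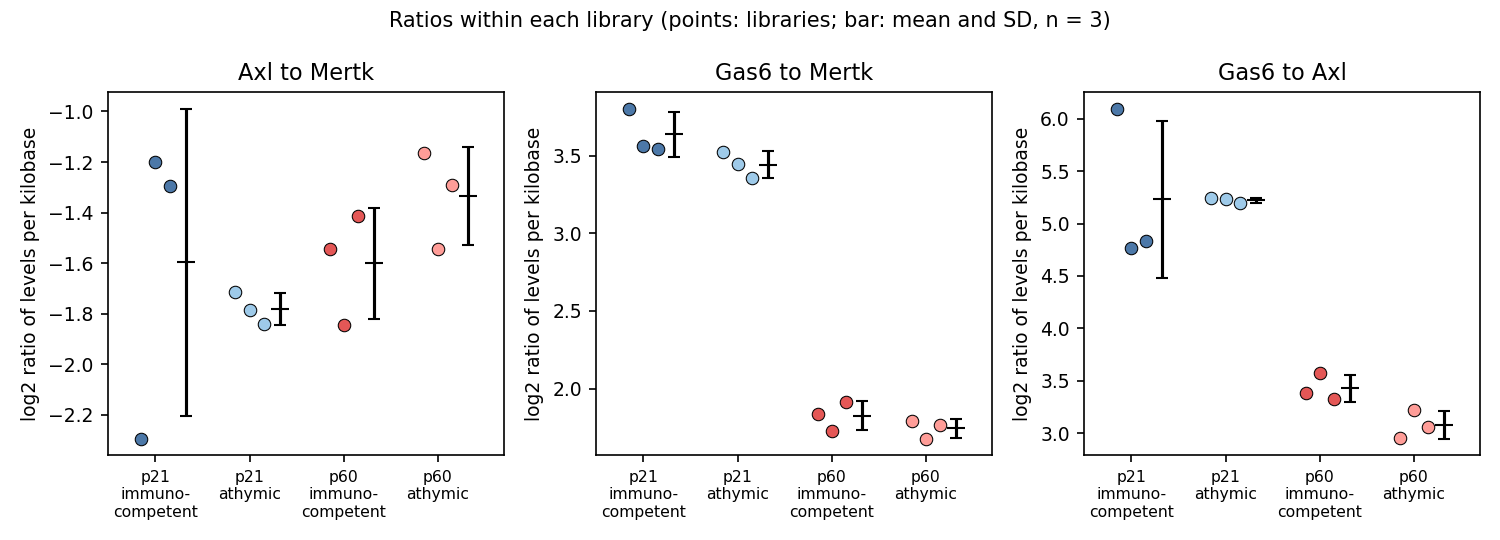
Log2 ratio of the levels per kilobase of *Axl* to *Mertk*, *Gas6* to *Mertk* and *Gas6* to *Axl* within each library, with points for libraries and bars for the mean and SD of 3 libraries. Both ratios with *Gas6* are lower in all 6 p60 libraries than in any p21 library, whereas the ratio of the receptor transcripts overlaps between the ages.

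Whether the p21 to p60 change differs between the lines was tested as the interaction of age and line. No difference was detected for the 3 genes, and 1 of all 16069 genes (0.00622%) passed this test. The difference of the log2 fold changes, athymic minus immunocompetent, was -0.15 for *Mertk* (95% interval -0.39 to 0.094, adjusted p = 0.727 by edgeR). It was 0.41 for *Axl* (95% interval -0.31 to 1.12, adjusted p = 0.750) and -0.036 for *Gas6* (95% interval -0.25 to 0.17, adjusted p = 0.941). The value for *Axl* depended on the immunocompetent p21 libraries, as it was 0.68 without library 1 (standard error 0.191, adjusted p = 0.188 by edgeR), 0.17 without library 2 and 0.25 without library 3, and it was 0.19 without libraries 3, 4, 5 and 22. For *Mertk*, it was -0.075 without library 19 and -0.23 without libraries 3, 4, 5 and 22. With all libraries, the interval for *Axl* holds both an equal rise in the lines and a rise in the athymic line that is 2.17-fold larger, so the data do not show that the lines respond alike.

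The athymic and immunocompetent retinas were also compared at each age. At p21, 0 of 15225 genes (0%) passed the test by edgeR, where 1936 had an unadjusted p-value under 0.05 and DESeq2 called 140. *Mertk* was 1.13-fold higher in the athymic retinas at p21 (log2 difference 0.18, 95% interval 0.00887 to 0.35), with an unadjusted p of 0.0411 and an adjusted p of 0.366 by edgeR. Its 3 athymic libraries lay above the 3 immunocompetent libraries, with 36.9 ± 1.78 against 32.7 ± 1.93 normalized CPM. At p21, the lines did not overlap, in either direction, for 17.1% of all genes. Libraries 4 and 5, whose Y chromosome counts go against their label, are among these 3, and without libraries 3, 4, 5 and 22 the difference was 0.28 (standard error 0.134, adjusted p = 0.225 by edgeR) with library 6 as the only athymic p21 library. The log2 difference at p21 was -0.11 for *Axl* (95% interval -0.71 to 0.49, adjusted p = 0.896) and -0.014 for *Gas6* (95% interval -0.14 to 0.11, adjusted p = 0.939). For both genes the libraries of the lines overlapped, and the value for *Axl* was -0.41 without library 1 and 0.11 without library 2.

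At p60, 3 of 15557 genes (0.0193%) passed the test between the lines, and none of the 3 genes was among them. *Axl* had 25.5 ± 2.95 normalized CPM in the athymic and 20.9 ± 3.29 in the immunocompetent retinas (SD, n = 3 each), a log2 difference of 0.29 (95% interval -0.029 to 0.61, adjusted p = 0.574 by edgeR), and the libraries overlapped. Without library 20 it was 0.17, and without library 19 it was 0.40 (adjusted p = 0.820 and 0.389 by edgeR). The log2 difference was 0.026 for *Mertk* (95% interval -0.17 to 0.22, adjusted p = 0.962) and -0.056 for *Gas6* (95% interval -0.24 to 0.13, adjusted p = 0.886). Ordered by level, *Mertk* and *Axl* had their highest means in the athymic p60 retinas and *Gas6* in the immunocompetent p21 retinas. Within each age, no difference of these genes between the lines passed the test.

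**Figure D5:**
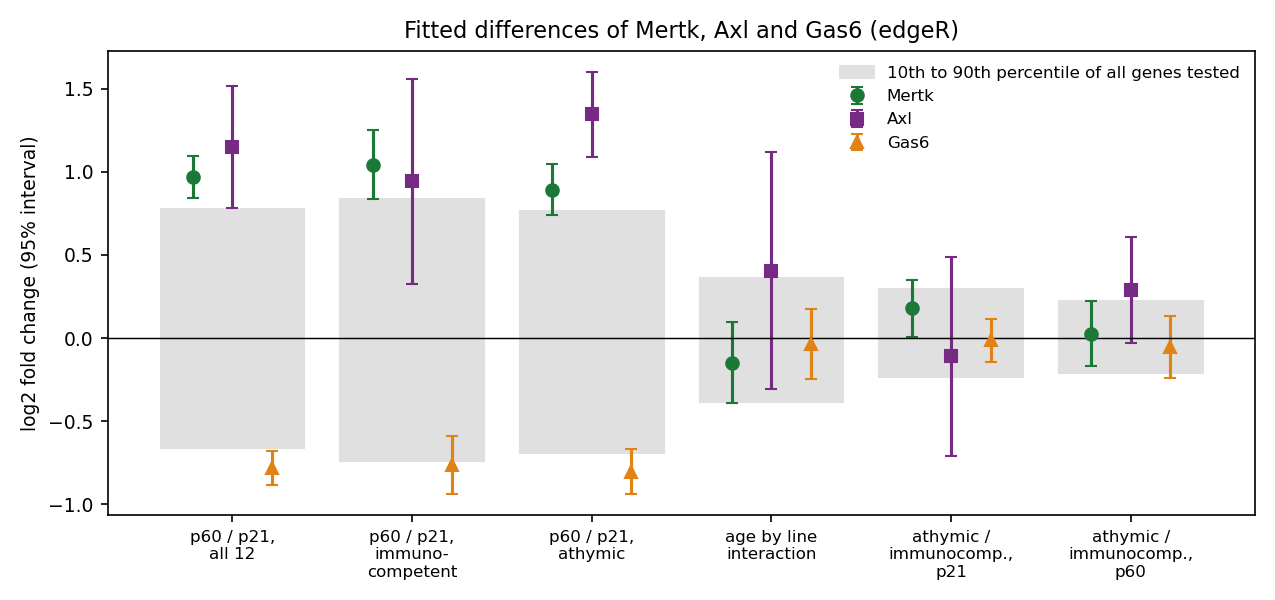
Fitted log2 differences of *Mertk*, *Axl* and *Gas6* with 95% intervals in 6 comparisons, over a grey band from the 10th to the 90th percentile of all genes tested. The fitted changes from p21 to p60 lie outside the band in both lines, with *Mertk* and *Axl* above and *Gas6* below. The intervals of the interaction and of the lines at p60 include 0.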

How the data were processed

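Counts from 12 libraries of whole RCS rat retina were analysed, grouped by the age and line in their labels. The authors mapped the reads with STAR (2.5.2b in the submitters' processing notes) to Rnor_6.0 and counted them per Ensembl gene with featureCounts (Subread 1.5.2 in the notes, while the methods name another version), and deposited raw counts without normalization. The strand setting, the annotation release and the handling of reads with several positions are not given in the sources used here. Unstranded counting would add antisense reads to a gene.

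From these counts, genes were filtered with filterByExpr (minimum count 10, minimum total 15), libraries were scaled with TMM factors, and comparisons were fitted with R 4.3.3 and edgeR 4.0.16 on all genes, where a gene passed with a Benjamini-Hochberg adjusted p under 0.05. Standard errors were derived from the log2 fold change and the F statistic, and intervals from the t distribution with the degrees of freedom of the fit. DESeq2 1.42.0, other scalings and filters, a model of all groups and the omission of libraries were alternatives. The scripts were tested on simulated data. Plots used matplotlib 3.10.9.

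The study's design gives 3 rats per line at each age, which equals the number of libraries, but the labels number the libraries and do not tie them to animals, so p-values measure the spread between libraries. Total counts of 13852516 to 16725355 per library set the counting error, and reads carry no molecular identifiers, so the Poisson interval covers counting error only. *Mertk*, *Axl* and *Gas6*, the gene lists and the libraries left out were chosen with earlier results of these data known. The rule for named genes was these 3 genes, lists of pathway and marker genes by symbol, and the 3 most similar genes with a symbol. None of the 32883 identifiers matched the gene table, so only the 3 genes are named. They were matched by symbol to the RefSeq promoter table (GRCr8), and all 3 matched.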

Additional observations from a re-analysis of the deposited data

Results flagged for a closer look

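Dixon's ratio, the gap to the nearest library over the whole range, was examined for 3 levels and 3 ratios among the 6 libraries of each age. Of these 12 sets, 1 held an outlying library, and about 1 in 20 would by chance. The log2 ratio of *Gas6* to *Axl* in library 1, immunocompetent at p21, was 6.10, and the other p21 libraries had 4.76 to 5.24 (Dixon's ratio 0.641). The same library had the lowest *Axl* and the highest *Gas6* level of the p21 libraries. Without it, the difference of this ratio between the ages was -1.80. Leaving out a library could not make the ages overlap, since *Axl* and *Gas6* each separated them, in opposite directions.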

How the results depend on the processing

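The 9 changes from p21 to p60 (each gene over all libraries and in each line) kept their direction and an adjusted p under 0.05 in 144 of 144 values under the alternatives, including those without libraries 3, 4, 5 and 22 and without libraries 4, 19 and 24. The weakest was *Axl* in the immunocompetent line, between 0.66 and 1.17 when 1 library was left out (adjusted p 0.0107 to 0.0456). Of the 9 results on lines and the interaction, none passed the threshold in any of 141 values, and 9 values turned the direction of a small difference. Both totals count some fits more than once. In a fit of 1 line or 1 age, leaving out a set of libraries can equal leaving out 1 library. When 1 library was left out, the interaction of *Gas6* lay between -0.093 and 0.046 (turned without library 19), the line difference of *Axl* at p21 between -0.41 and 0.11 (library 2 or 3), that of *Gas6* at p21 between -0.035 and 0.019 (library 1), that of *Gas6* at p60 between -0.11 and 0.033 (library 19), and that of *Mertk* at p60 between -0.049 and 0.11 (library 21 or 24). Without libraries 4, 19 and 24, the interaction of *Gas6* was 0.011, and without libraries 3, 4, 5 and 22, the line difference of *Axl* at p21 was 0.039. In this setting 1 athymic p21 library remained, assumed to vary like the others. In each line alone, the age difference of the ratio of *Gas6* to *Mertk* was -1.81 (immunocompetent) and -1.70 (athymic), that of *Gas6* to *Axl* was -1.80 and -2.14, and that of *Axl* to *Mertk* was -0.00442 in the immunocompetent line. These have p-values no smaller than 0.100 by construction, since 3 libraries stand against 3.

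Counts of genes called between the lines were unstable. For the interaction, 115 genes were called without a filter, 0 with at least 10 counts in every library, 146 by DESeq2, 1 to 138 without 1 library (138 without library 1, 92 without library 24), 0 without libraries 3, 4, 5 and 22 and 3 without libraries 4, 19 and 24. For the lines at p21, the counts were 282 without a filter, 140 by DESeq2, 0 to 85 without 1 library and 1257 without libraries 3, 4, 5 and 22. For the lines at p60, they were 11 without a filter, 106 by DESeq2, 0 to 61 without 1 library (61 without library 24, 26 without library 22), and 26 and 179 without the sets of libraries. In the athymic line, 3342 genes were called between the ages without libraries 3, 4, 5 and 22, against 7740. The causes were not tested. The model of all 4 groups is the interaction fit itself and gave no other value for it. No paired analysis was possible because the labels give each library a number of its own and the groups share none. The depth limits *Axl* most, with 73 counts in its lowest library.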

Other observations

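Over the 12 libraries, the 3 genes most like each of *Mertk*, *Axl* and *Gas6* by Pearson's r of log2 CPM, among 13546 other genes, had r of 0.991 to 0.994 for *Mertk*, 0.974 to 0.989 for *Axl* and 0.993 to 0.994 for *Gas6*. The ages did not overlap for 40.4% of all genes, and high values of r were common. With *Mertk*, 1725 genes were above 0.9 and 2084 below -0.9. With *Gas6* these numbers were 1852 and 1613, and with *Axl* 355 and 427. These genes carry no symbol in the files and are not named.

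At p60, library 19 lay above its condition mean for all 3 genes, by 0.14 for *Mertk*, 0.20 for *Axl* and 0.16 for *Gas6* on the log2 scale, and library 24 by 0.064, 0.11 and 0.084. These libraries had the highest scores on the first component of the deviations within conditions (0.51 and 0.49). At p21, library 4, the next highest with 0.26, deviated by -0.067, -0.0013 and 0.018. Without libraries 4, 19 and 24, the log2 fold change from p21 to p60 was 0.91 for *Mertk*, 1.05 for *Axl* and -0.84 for *Gas6*. With all libraries it was 0.97, 1.15 and -0.78. The cause of these deviations was not tested.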
